A study of Mus musculus with 4 samples.

Results

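Collagens are the triple-helical proteins of the extracellular matrix, and every gene of the deposited table whose symbol names a collagen chain was followed here. The symbol rule (Col, the type number, a, the chain number) took 44 genes of 27 collagen types, out of 24346 genes in the table. They were grouped as basement membrane collagens (8 genes of types 4, 15 and 18), fibrillar collagens (6 genes of types 1, 3 and 5) and other collagens (30 genes). The last group holds, among others, chains of types 2, 11, 24 and 27, which are also counted as fibrillar in textbooks. RNA was measured in heart endothelial cells of mice labelled Young on a C57BL/6 background, purified by flow cytometry with a purity mask and labelled as taken straight from the tissue. The 2 ECp53KO libraries (ECp53KO_170 and ECp53KO_172) are read as an endothelial loss of p53, a reading that rests on the series title, and the 2 Ctrl libraries (Ctrl_178 and Ctrl_182) are labelled wild type. The Cre driver, the deleted exons, the age in weeks and whether each library is 1 mouse were not given in the sources used here, so p-values measure the spread between these libraries, which may be technical.

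Endothelial cells rest on a basement membrane whose backbone is a network of collagen IV. In most tissues its trimers are built from the alpha1 and alpha2 chains, and the alpha3 to alpha6 chains serve specialised membranes such as that of the kidney glomerulus. Collagens XV and XVIII carry heparan or chondroitin sulfate chains and lie at or beneath the vascular basement membrane, and the C-terminal end of collagen XVIII is the source of endostatin, an inhibitor of vessel growth. Fibrillar collagens I, III and V form the tensile fibres of the interstitium, made chiefly by fibroblasts. p53 has been linked to collagen through the prolyl hydroxylase subunit P4ha2, which helps release anti-angiogenic collagen fragments.

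Values are the authors' FPKM (fragment numbers scaled by transcript length and by library size), so that levels can be compared between genes. By estimate, Ctrl_182 held 22500000 fragments and each of the other libraries 10000000 to 11400000. Trp53, the gene named by the ECp53KO label, was at 4.41 (ECp53KO_170), 2.45 (ECp53KO_172), 52.1 (Ctrl_178) and 28.8 FPKM (Ctrl_182). The endothelial markers Cdh5 (958 to 1098 FPKM) and Pecam1 (858 to 975 FPKM) were high in every library, and the leukocyte marker Ptprc was between 0 and 0.108 FPKM. Other leukocyte markers were higher: Cd68 stood at 0.702, 0.307, 4.31 and 1.08 FPKM in the same order, and Lyz2 at 2.52 to 3.19 FPKM. Sex-linked transcripts differed within each group: Xist was near 0 in ECp53KO_170 (0.0230 FPKM) and Ctrl_178 (0.0352 FPKM) but not in ECp53KO_172 (23.0 FPKM) and Ctrl_182 (23.9 FPKM). The Y-linked Ddx3y stood at 17.1 (ECp53KO_170), 0.0422 (ECp53KO_172), 21.7 (Ctrl_178) and 0.912 FPKM (Ctrl_182). Ctrl_182 thus held some Y-linked RNA beside high Xist. FPKM in ECp53KO_170 was lower the longer the transcript, relative to the mean of the libraries (Spearman's rho -0.43 across tested genes, which are not independent replicates), against rho of 0.15 to 0.32 in the other 3 libraries. The transcripts of the tested collagen genes are long (their median is 5260 nucleotides, and that of all tested genes 3006), so results are also given with that trend removed.

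Stretches of genomic sequence at collagen starts are shown because they set neighbouring or contrasting members side by side. RefSeq start windows (build GRCm38.p6) were found for 35 of the 44 genes. Col4a1 and Col4a2 lie head to head on chromosome 8, and their gene bodies overlap by 85 bases. The starts in the windows, at 11312826 on the minus strand for Col4a1 and 11312805 on the plus strand for Col4a2, lie 22 bases apart by inclusive count, so that transcription from each runs across the start of the other. The 30 bases around them are printed on the plus strand (chr8:11312801-11312830), with the stretch from one start to the other in capitals. Col8a1 is a short-chain collagen of the vessel wall. It was lower in ECp53KO without overlap, though not called (limma adjusted p = 0.864). Col3a1 is a fibrillar chain whose values overlapped between the groups. They were set side by side with these values known, and a link of sequence to level was not tested. Both are shown by the 250 bases upstream of their starts (chr16:57754738-57754987, minus strand, and chr1:45311288-45311537, plus strand). Capitals there mark the TATA box TATAAA, the CCAAT box and the GC box GGGCGG on either strand.
Col4a1/Col4a2: cggcAGTGCGCGGGCGGCGTCTCCAAgggg
Col8a1: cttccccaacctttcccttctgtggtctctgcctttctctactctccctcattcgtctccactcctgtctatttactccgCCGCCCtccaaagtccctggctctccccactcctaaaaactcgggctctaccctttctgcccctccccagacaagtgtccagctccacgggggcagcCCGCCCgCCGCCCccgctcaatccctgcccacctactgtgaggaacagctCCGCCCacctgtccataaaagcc
Col3a1: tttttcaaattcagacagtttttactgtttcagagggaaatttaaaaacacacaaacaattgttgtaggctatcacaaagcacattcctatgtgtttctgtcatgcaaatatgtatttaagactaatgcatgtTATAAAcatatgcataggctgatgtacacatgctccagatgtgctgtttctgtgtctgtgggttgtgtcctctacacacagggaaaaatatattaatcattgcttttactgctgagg
The Col8a1 stretch holds the GC box GGGCGG (searched on both strands) 4 times and no TATAAA, and the Col3a1 stretch holds TATAAA and no GC box. Over the 250 bases upstream, GGGCGG occurred in 22 of 38 collagen windows (57.9%) and in 32.7% of all 32851 windows. Among the 13 windows of the tested collagen genes, 6 held it. TATAAA occurred in 13.2% of collagen windows against 12.4% of all, and CCAAT in 34.2% against 33.8%. The consensus p53 half-site was found in 3 collagen windows (7.89%, against 7.13% of all), those of Col20a1, Col6a6 and Col9a2, and in none of the 13 windows of the tested collagen genes. These matches describe letters only.

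The collagen RNA of these cells was almost wholly that of the basement membrane. The 8 basement membrane genes made up 98.1% of the summed collagen FPKM in both ECp53KO_170 and ECp53KO_172, 98.6% in Ctrl_178 and 98.2% in Ctrl_182. Col4a1 and Col4a2 alone made up 92.0% to 94.0%. The share of fibrillar chains was 0.604%, 0.629%, 0.579% and 0.548% in the same order. The share of the other collagens was 1.26%, 1.30%, 0.783% and 1.25%, lowest in Ctrl_178. Summed collagen FPKM was 918 (ECp53KO_170), 1453 (ECp53KO_172), 2425 (Ctrl_178) and 1587 (Ctrl_182). Means by group were 1186 ± 378 and 2006 ± 593 FPKM (SD, n = 2 each). The 2 intermediate libraries, 1 from each group, lay closer to each other than to the other library of their own group.

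The condition for testing, an average over all 4 libraries of 1 FPKM or more, was met by 12 of the 44 genes: 4 basement membrane, 3 fibrillar and 5 other. Another 26 were above 0 in some library, and 6 (Col6a4, Col6a5, Col6a6, Col9a1, Col11a1 and Col26a1) were listed at 0 in all 4. None of the 12 passed limma's test after Benjamini-Hochberg adjustment over all 11332 tested genes, where 0.0882% were called lower and 0.0265% higher. Trp53 itself did not pass in this fit either (log2 fold change -3.20 ± 0.36, limma adjusted p = 0.146), and its adjusted p ranged from 0.00336 to 0.62 over the alternative fits. By unadjusted limma p under 0.05, no gene of the 12 was lower and 0 were higher, beside 2.82% and 1.97% of all tested genes. Of the 12, 11 had a negative fold change, as had 48.3% of all tested genes. Both ECp53KO libraries lay below both Ctrl libraries for 5 of the 12 (Col4a1, Col4a2, Col5a2, Col1a2 and Col8a1), and 16.8% of all tested genes did so. None of the 12 was higher in this way, beside 19.1% of all. The median log2 fold change, ECp53KO minus Ctrl on the log2(FPKM + 1) scale, was -0.66 for the basement membrane genes, -0.30 for the fibrillar genes and -0.08 for the others, beside 0.01 over all tested genes. In bulk RNA, fewer cells that make a collagen and less RNA per cell cannot be told apart.

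**Figure D1:**
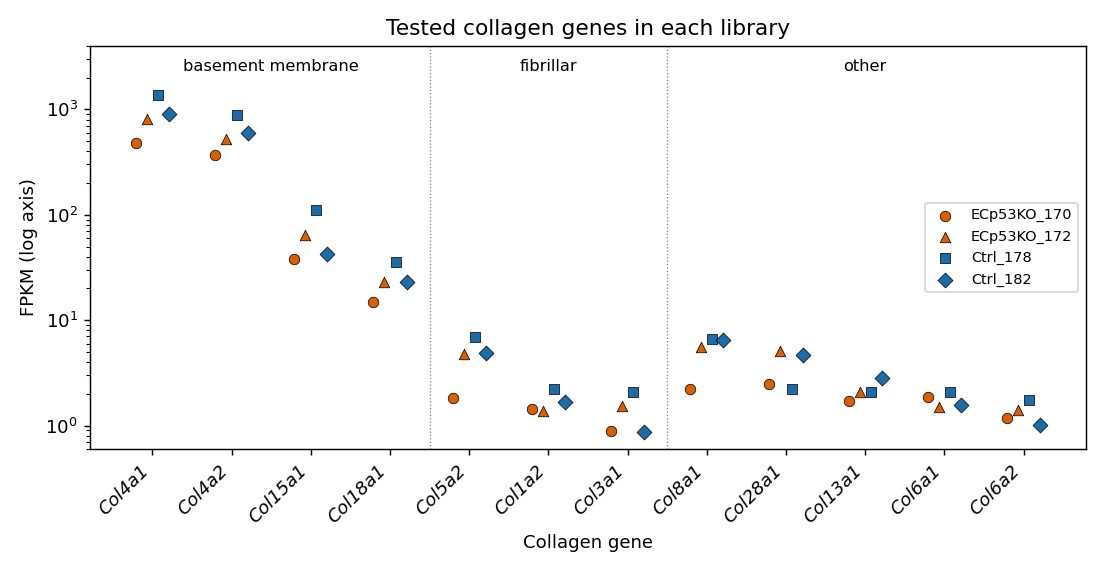
FPKM (log axis) of the 12 tested collagen genes in each of the 4 libraries, grouped as basement membrane, fibrillar and other, with ECp53KO in orange and Ctrl in blue. The 4 basement membrane genes were lowest in ECp53KO_170 and highest in Ctrl_178, and they lay above all other collagen genes.

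Among the basement membrane collagens, the chains of the common collagen IV trimer were by far the most abundant. Col4a1 (chromosome 8, 11198423 to 11312889, GRCm38), which encodes the alpha1 chain, stood at 477 (ECp53KO_170), 814 (ECp53KO_172), 1359 (Ctrl_178) and 899 FPKM (Ctrl_182). Every ECp53KO value was below every Ctrl value, but ECp53KO_172 lay closer to Ctrl_182 than to ECp53KO_170. Its means were 646 ± 238 and 1129 ± 325 FPKM (SD, n = 2 each), 57.2% of the Ctrl mean. On the log2 scale the difference was -0.83 ± 0.38 (SE; limma adjusted p = 0.864). Col4a2 (11312805 to 11449287 on the same chromosome), which encodes the alpha2 chain, stood at 371, 523, 884 and 593 FPKM in the same order of libraries. The libraries ranked as they did for Col4a1, and the log2 fold change was -0.72 ± 0.32 (limma adjusted p = 0.864). By mean level these genes ranked 91 and 140 among the 23026 genes that are not small RNA loci.

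The ratio of Col4a1 to Col4a2 varied far less than either gene. It was 1.29 (ECp53KO_170), 1.56 (ECp53KO_172), 1.54 (Ctrl_178) and 1.52 (Ctrl_182), so that Col4a1 exceeded Col4a2 in each library while Col4a1 itself spanned 477 to 1359 FPKM. Only ECp53KO_170 stood apart in this ratio. As the kit keeps no strand, reads in the 85 overlapping bases could not be assigned to one of the pair.

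Collagens XV and XVIII were lower by an order of magnitude than collagen IV and did not separate the groups. Col15a1 (chromosome 4, 47207655 to 47313167) stood at 37.7 (ECp53KO_170), 64.1 (ECp53KO_172), 112 (Ctrl_178) and 42.0 FPKM (Ctrl_182). The groups overlapped, since Ctrl_182 was below ECp53KO_172, and the log2 fold change was -0.47 ± 0.51 (limma adjusted p = 0.882). Without Ctrl_178 it was 0.22, the opposite direction. Col18a1 (chromosome 10, 77052178 to 77166530), the endostatin precursor gene, stood at 14.999, 22.956, 35.92 and 22.947 FPKM in the same order, with ECp53KO_172 and Ctrl_182 all but equal. Its log2 fold change was -0.60 ± 0.30 (limma adjusted p = 0.864). Col15a1 exceeded Col18a1 in each library.

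The remaining collagen IV chains were scarce. Col4a3, Col4a4, Col4a5 and Col4a6, which encode the alpha3 to alpha6 chains, did not exceed 0.756 FPKM in any library. Col4a4 stood at 0.0963 and 0.307 in ECp53KO against 0.390 and 0.564 FPKM in Ctrl, without overlap, from an estimated 11, 31, 43 and 128 fragments. Col4a3, whose gene body overlaps that of Col4a4 head to head by 114 bases, stood at 0.339, 0.579, 0.484 and 0.756 FPKM and overlapped between the groups. Col4a5 and Col4a6, a pair on the X chromosome, stood at 0.135 to 0.336 FPKM and 0 to 0.0435 FPKM.

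**Figure D2:**
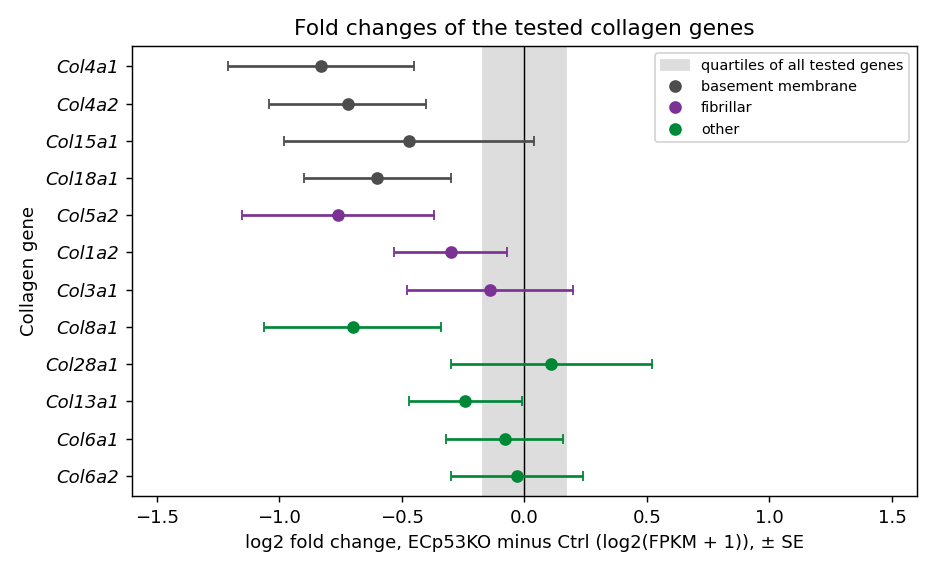
Log2 fold change, ECp53KO minus Ctrl, of the 12 tested collagen genes on the log2(FPKM + 1) scale, with bars for ± SE, and a grey band from the lower to the upper quartile of all 11332 tested genes (-0.17 to 0.17). Col4a1, Col4a2, Col18a1, Col5a2 and Col8a1 lie left of the band with their bars, and none of the genes passed the adjusted limma test.

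Fibrillar collagens were present at a few FPKM at most. Col5a2 (chromosome 1, 45374331 to 45503282), which encodes a chain of collagen V, a nucleator of collagen fibrils, was the most abundant at 1.83 (ECp53KO_170), 4.78 (ECp53KO_172), 6.99 (Ctrl_178) and 4.89 FPKM (Ctrl_182). ECp53KO_170 was far below the rest, and ECp53KO_172 and Ctrl_182 were nearly equal. The log2 fold change was -0.76 ± 0.39 (limma adjusted p = 0.864), and without ECp53KO_170 it was -0.25. Col3a1, its neighbour 24624 bases away, did not follow it: it stood at 0.896 and 1.52 in ECp53KO against 2.103 and 0.878 FPKM in Ctrl, with overlap. Its log2 fold change of -0.14 ± 0.34 (limma adjusted p = 0.942) was 0.06 without ECp53KO_170 and 0.22 without Ctrl_178.

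Collagen I is the main collagen of fibroblasts. Col1a2 stood at 1.43 and 1.36 in ECp53KO against 2.23 and 1.69 FPKM in Ctrl, without overlap, and its log2 fold change was -0.30 ± 0.23 (limma adjusted p = 0.864). Col1a1, on chromosome 11 as Trp53 is, had a mean below 1 FPKM and stood at 0.706, 0.728, 1.21 and 0.496, with Ctrl_182 the lowest of all. The ratio of Col1a1 to Col1a2 was 0.493, 0.534, 0.541 and 0.294 in the same order. Col5a1 (0.328, 0.490, 0.620 and 0.357 FPKM) overlapped between the groups, while Col5a3 (0.3597, 0.254, 0.894 and 0.386 FPKM) was lower in ECp53KO without overlap.

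Markers of fibroblasts were followed beside the fibrillar genes. The 15 markers summed to 135 and 129 in ECp53KO against 154 and 130 FPKM in Ctrl, none was at 0 in all libraries, and 9 were tested. Of the 9, 3 were lower and 3 higher without overlap (16.8% and 19.1% of all tested genes were), and the median was 0 on the log2 scale. Dcn, which encodes the fibroblast proteoglycan decorin, stood at 19.96, 16.2, 16.6 and 19.5 FPKM, and Pdgfra, a receptor of fibroblasts, at 3.05, 3.97, 3.05 and 3.01. Tcf21, a fibroblast transcription factor, was listed at 0.318 and 0 in ECp53KO against 1.16 and 0.928 FPKM in Ctrl. Postn and Pi16, secreted by fibroblasts, were lower in ECp53KO without overlap (1.22 and 1.93 against 3.81 and 2.26 FPKM, and 16.3 and 26.4 against 33.3 and 31.4 FPKM), and Dpt was higher (3.07 and 2.55 against 1.78 and 1.30 FPKM). The part of these cells in the collagen values was not tested.

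Of the 5 tested genes among the other collagens, Col8a1 had the largest fold change on the log2(FPKM + 1) scale. Col8a1 (chromosome 16, 57624256 to 57754737) encodes a short-chain collagen of vessel walls. It stood at 2.24 (ECp53KO_170), 5.60 (ECp53KO_172), 6.60 (Ctrl_178) and 6.44 FPKM (Ctrl_182), so that 3 libraries were close together and ECp53KO_170 was low. The log2 fold change was -0.70 ± 0.36 (limma adjusted p = 0.864), and without ECp53KO_170 it was -0.19. Its partner chain Col8a2 was listed at 0 in 3 libraries and at 0.123 FPKM in Ctrl_178.

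Col28a1, a chain with von Willebrand factor A domains, had the only positive fold change among the 12 genes (0.11 ± 0.41, limma adjusted p = 0.967). It stood at 2.47 (ECp53KO_170), 5.13 (ECp53KO_172), 2.21 (Ctrl_178) and 4.66 FPKM (Ctrl_182), higher in the libraries with high Xist than in those with low Xist, in both groups. Without ECp53KO_172 or without Ctrl_178 its log2 fold change was -0.30, the opposite direction. This gene is autosomal (chromosome 6, 7997100 to 8193709), and the pattern was picked out after the values were seen. Col13a1, a membrane-anchored collagen, stood at 1.71, 2.09, 2.08 and 2.81 FPKM. Col6a1 (1.86, 1.49, 2.09 and 1.58 FPKM) and Col6a2 (1.18, 1.41, 1.73 and 1.01 FPKM), chains of the microfibrillar collagen VI, had log2 fold changes of -0.08 ± 0.24 and -0.03 ± 0.27 (limma adjusted p = 0.954 and 0.986), and that of Col6a2 was 0.02 with the length trend removed. Their partner Col6a3 was scarce, between 0.0636 and 0.385 FPKM.

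Below the limit for testing, 26 genes lay between 0 and 1.21 FPKM. Of these, 6 were lower in ECp53KO without overlap (Col4a4, Col5a3, Col9a2, Col9a3, Col12a1 and Col23a1) and 1 was higher (Col17a1). With no filter, 11 of the 38 collagen genes above 0 were thus lower and 1 higher, beside 17.2% and 16.3% of 16809 genes. The smallest unadjusted p among them was that of Col9a3, a chain of a cartilage collagen. It stood at 0.154 and 0.248 in ECp53KO against 0.674 and 0.547 FPKM in Ctrl, from an estimated 5, 8, 23 and 37 fragments (log2 fold change -0.42, limma adjusted p = 0.853 in the fit with no filter). Col12a1 and Col23a1 had at most 0.265 and 0.778 FPKM. Col17a1, a collagen of epithelial hemidesmosomes, was listed at 0.0311 and 0.0537 FPKM in ECp53KO, an estimated 2 and 3 fragments, and at 0 in both Ctrl libraries, so that a difference was not detectable at this depth. Col9a2 rested on an estimated 2 fragments in each Ctrl library and was listed at 0 in ECp53KO.

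The same 2 libraries were the extremes for many of these genes. All 4 tested basement membrane genes were lowest in ECp53KO_170 and highest in Ctrl_178, as were Col5a2 and Col8a1, which made 6 of the 12. Of all tested genes 11.6% showed this order. Setting the libraries side by side by Xist level, ECp53KO_170 minus Ctrl_178 gave differences of -1.51 for Col4a1, -1.25 for Col4a2, -1.55 for Col15a1, -1.21 for Col18a1, -1.5 for Col5a2 and -1.23 for Col8a1 (log2(FPKM + 1)). The differences of ECp53KO_172 minus Ctrl_182 were -0.14, -0.18, 0.60, 0.00, -0.03 and -0.17. The median over the 4 basement membrane genes was -1.38 for the first pair and -0.07 for the second, and over all tested genes 0.03 and 0. Neither these differences nor the order of the libraries was corrected for transcript length. FPKM in ECp53KO_170 fell with length (Spearman's rho -0.43 across tested genes), and the part of length in these values was not tested. Of the 12 genes, 11 were lower in ECp53KO_170 than in Ctrl_178 (46.5% of all tested genes were), and 7 were lower in ECp53KO_172 than in Ctrl_182 (49.9% were). Xist level is shared within each pair, and in the fit with Xist level as a covariate the log2 fold change of Col4a1 was -0.83 (limma adjusted p = 0.903). Each group holds 1 library at each Xist level, so this covariate could not move a fold change, only its error and p-value. With 1 library per group at each Xist level, library and genotype cannot be told apart within a pair, nor library and Xist level between the pairs, and the difference between the pairs was not tested.

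**Figure D3:**
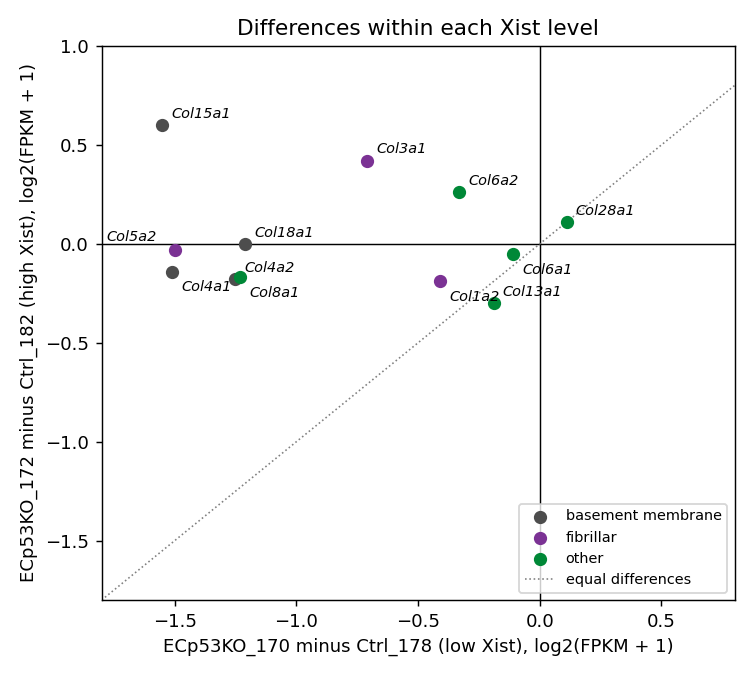
Difference in log2(FPKM + 1) between the ECp53KO and Ctrl library with low Xist (horizontal axis) and between those with high Xist (vertical axis), 1 point for each of the 12 tested collagen genes; the dotted line marks equal differences. Col4a1, Col4a2, Col15a1, Col18a1, Col5a2 and Col8a1 lie between -1.55 and -1.21 on the horizontal axis and between -0.18 and 0.60 on the vertical.

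The group difference was also computed with each library left out. Without ECp53KO_170 the median of the basement membrane genes was -0.38, without Ctrl_178 it was -0.36, and it was -0.93 without ECp53KO_172 and -1.06 without Ctrl_182. The direction of these shifts was fixed in advance, since the extreme libraries were named from these same genes, and only their size is described. Of the 12 genes, 6 were lower without overlap when ECp53KO_170 was left out (33.6% of all tested genes were) and 8 when ECp53KO_172 was (35.8%). Leaving out Ctrl_178 gave 6 (29.3%) and leaving out Ctrl_182 gave 10 (30.9%), with fewer libraries left to overlap. With the length trend removed the median of the basement membrane genes was -0.57, with Col4a1 at -0.72 and Col4a2 at -0.61. In the fit without small RNA loci, Col4a1 and Col4a2 were lower at an unadjusted limma p under 0.05 (2 of 12 genes, beside 3.62% of all tested genes). With the length trend removed as well, 4 of 12 were (those 2, Col18a1 and Col8a1), beside 4.42% of all. This last setting was chosen after the data were seen. With the length trend alone removed, 0 of 12 were lower at that limma p. In none of these fits did a collagen gene pass adjustment over all genes. ECp53KO_170 also held the most erythroid RNA (the markers summed to 220 FPKM, against 33.9 in ECp53KO_172, 22.8 in Ctrl_178 and 13.6 in Ctrl_182; 4 of 4 tested members were higher in ECp53KO without overlap, beside 19.1% of all tested genes, and none was at 0 in all libraries). Cardiomyocyte markers summed to 445 and 255 in ECp53KO against 254 and 233 FPKM in Ctrl, with 1 of 9 tested members negative. Pericyte and smooth muscle markers summed to 176 and 140 in ECp53KO against 98.1 and 118 FPKM in Ctrl, with 1 of 11 negative. Of all tested genes 48.3% were negative. Pan-endothelial markers summed to 9927 and 9243 in ECp53KO against 8867 and 9620 FPKM in Ctrl. Leukocyte markers, with Cd3e at 0, summed to 6.88 (ECp53KO_170), 5.60 (ECp53KO_172), 10.6 (Ctrl_178) and 5.55 FPKM (Ctrl_182), highest in Ctrl_178. Endocardial markers summed to 90.0 and 110 in ECp53KO against 127 and 140 FPKM in Ctrl, with 5 of 7 tested members lower without overlap, beside 16.8% of all tested genes. The part of these cells in the collagen values was also not tested.

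The genes that make, bind and cut collagen were read beside it, from 6 lists of 77 entries, 56 of them tested. None passed adjustment by limma. At an unadjusted limma p under 0.05, 6 were lower and 1 higher (2.82% and 1.97% of all tested genes were), and 20 were lower and 5 higher without overlap (16.8% and 19.1%).

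Partners of collagen IV in the basement membrane had mostly negative fold changes, as it did. Of 11 tested, 10 had a negative fold change (48.3% of all tested genes had) and 3 were lower without overlap (16.8%). The median was -0.56 (0.01 over all tested genes). The 12 listed genes summed to 718 (ECp53KO_170), 1102 (ECp53KO_172), 1451 (Ctrl_178) and 1065 FPKM (Ctrl_182), so that ECp53KO_172 exceeded Ctrl_182. Nid2, which encodes nidogen-2, a linker of laminin and collagen IV, stood at 23.8 and 48.4 in ECp53KO against 81.1 and 60.1 FPKM in Ctrl. Its log2 fold change was -1.02 ± 0.37 (limma adjusted p = 0.864). Lamc1, the laminin gamma1 chain gene, stood at 49.9 and 83.1 against 119 and 97.0 FPKM, and Papln, which encodes a matrix proteoglycan-like protein, at 33.8 and 52.6 against 107 and 50.4 FPKM. As with Col4a1, ECp53KO_170 was lowest and Ctrl_178 highest for all 3 genes. Pxdn, the peroxidase that cross-links collagen IV, stood at 82.3 and 100.2 in ECp53KO against 157 and 118 FPKM in Ctrl, without overlap (log2 fold change -0.58 ± 0.22, limma adjusted p = 0.864).

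Enzymes that modify the nascent chains were mixed in direction. Of 13 tested hydroxylases and their partners, 9 were negative, 4 lower and 2 higher without overlap, with a median of -0.11. Over all tested genes the shares were 48.3%, 16.8% and 19.1%, in the same order. P4ha1, a catalytic subunit of prolyl 4-hydroxylase, was the 1 member with an unadjusted limma p under 0.05 and was higher in ECp53KO. It stood at 25.2 and 30.01 FPKM against 17.8 and 15.2, which gave a log2 value of 0.71 ± 0.17 (limma adjusted p = 0.864). Its paralog P4ha2 stood at 19.4 and 23.1 in ECp53KO against 21.9 and 33.0 FPKM in Ctrl, with overlap (-0.33 ± 0.24, limma adjusted p = 0.864). Crtap, part of the prolyl 3-hydroxylation complex, stood at 28.7 and 28.0 against 41.8 and 31.3 FPKM, and its partner Ppib, a prolyl isomerase, at 213 and 149 against 140 and 139 FPKM.

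Among 12 tested chaperones and secretion genes, 6 were negative and 4 lower and 2 higher without overlap (median -0.01). Of all tested genes 48.3%, 16.8% and 19.1% were. Creb3l1, a transcription factor of secretory cells known to act on collagen genes, stood at 5.31 and 6.61 in ECp53KO against 10.0 and 9.66 FPKM in Ctrl (-0.65 ± 0.18, limma adjusted p = 0.864). Fkbp14, a prolyl isomerase of the endoplasmic reticulum, stood at 7.60 and 6.67 against 12.4 and 27.9 FPKM, and Fkbp10, a related isomerase, at 5.16 and 7.02 against 10.2 and 7.83 FPKM. Serpinh1, the collagen chaperone Hsp47, stood at 337 and 354 in ECp53KO against 379 and 229 FPKM in Ctrl, with overlap. Its level did not follow that of Col4a1, since ECp53KO_170, lowest for Col4a1, held more Serpinh1 than Ctrl_182.

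**Figure D4:**
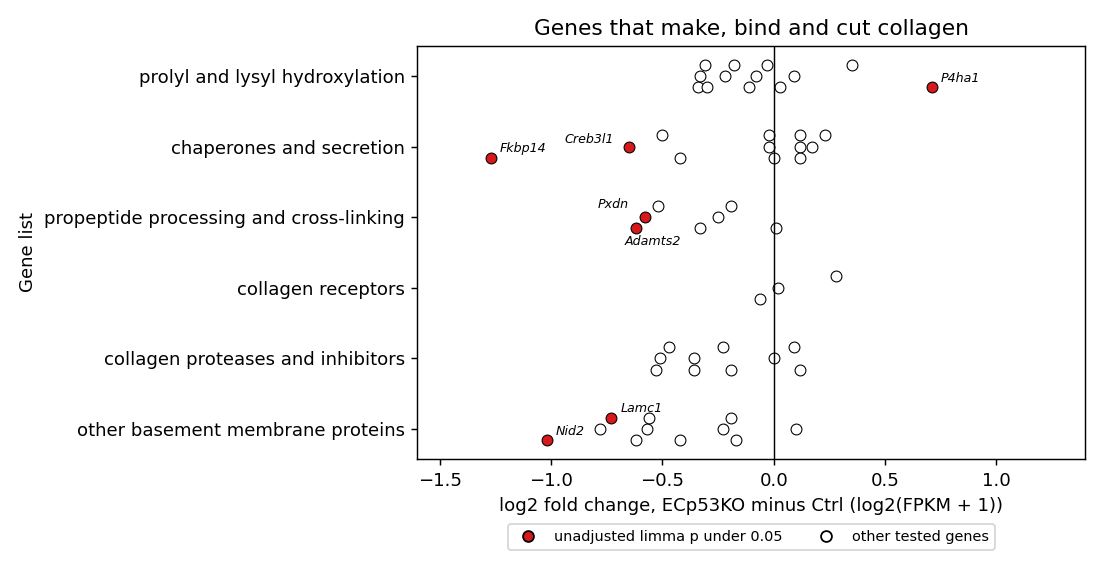
Log2 fold change, ECp53KO minus Ctrl on the log2(FPKM + 1) scale, of each tested gene in 6 lists of collagen handling; red points had an unadjusted limma p under 0.05 and are named. P4ha1 is the only red point on the positive side, and 10 of 11 other basement membrane genes lie left of 0.

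Outside the cell, 6 of 7 tested genes of propeptide processing and cross-linking were negative and 4 lower without overlap (median -0.33). Of all tested genes 48.3% were negative and 16.8% lower in this way. Adamts2, which removes the amino-terminal propeptide of fibrillar collagens, stood at 0.922 and 0.848 in ECp53KO against 2.03 and 1.76 FPKM in Ctrl (-0.62 ± 0.23, limma adjusted p = 0.864), and Pcolce, an enhancer of C-propeptide removal, at 23.5 and 25.1 against 44.8 and 27.9 FPKM. Lox, a lysyl oxidase, was low, at 0.457 and 1.82 against 1.37 and 1.26 FPKM. Of 10 tested proteases and inhibitors, 8 were negative and 4 lower without overlap, beside the same 48.3% and 16.8% of all tested genes. Their median was -0.30, and Mmp8 and Mmp13 were listed at 0. The membrane-anchored protease Mmp14, which cuts fibrillar collagen, stood at 6.97 and 8.40 against 13.9 and 9.24 FPKM, the gelatinase Mmp2 at 1.63 and 2.60 against 3.20 and 3.74 FPKM, and the inhibitor Reck at 2.79 and 2.59 against 4.75 and 3.51 FPKM.

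Few collagen receptors passed the limit for testing. Of 10, 3 were tested (median 0.02) and Lair1 was listed at 0. Itgb1, the shared beta1 integrin chain, stood at 331 and 308 in ECp53KO against 324 and 307 FPKM in Ctrl. Its collagen-binding partner Itga1 stood at 58.1 and 58.3 against 63.2 and 58.3 FPKM, and Itga10 at 1.67 and 1.91 against 1.23 and 1.36 FPKM (0.28 ± 0.22, limma adjusted p = 0.864).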

How the data were processed

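FPKM values of 24346 genes were deposited by the authors in 1 table, whose 4 columns match the 4 libraries by title. Per the labels' protocols, libraries were unstranded and selected for polyadenylated RNA. TopHat2 2.1.0, Cufflinks 2.2.1, Trimmomatic 0.36, FastQC 0.11.5, bcl2fastq 2.17 and the build mm10 appear in the submitters' processing notes, without roles. Annotation and filters were not given in the sources used here.

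Values were analysed as log2(FPKM + 1) in the 11332 genes averaging 1 FPKM or more, with limma 3.58.1 in R 4.3.3 (intensity trend, two-sided, Benjamini-Hochberg over all tested genes, threshold 0.05). The fit had 2 residual and 3.15 prior degrees of freedom, and was tested on simulated data. Depth was read from the commonest value of FPKM times length in 1149 low genes, taken as 1 fragment; fragment numbers are therefore estimates. Lengths are those of the longest GENCODE M21 transcript, and positions are RefSeq's. The members and lists were chosen with earlier results of these data known; all collagen genes may be named, and from each other list the 3 with the smallest p and 6 genes fixed by name. From the marker lists only some of these are named, and 1 list is not reported here. Alternatives changed the pseudocount, filter, scaling, small RNA loci, length trend, Xist covariate, shrinkage and libraries.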

Additional observations from a re-analysis of the deposited data

How the results depend on the processing

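No paired analysis was possible because no replicate number occurs in both groups, so libraries could be matched by Xist level alone. In the fit with Xist level as a covariate, the medians of the 3 collagen families were the same as without it. This was fixed in advance, since each group holds 1 library at each Xist level, and says nothing on the part of Xist level. No collagen gene passed adjustment under any alternative (limma adjusted p between 0.305 and 0.999 for the 12 tested genes). Rescaling to TPM shifted the median of all genes by -0.11 and kept the sign of all 3 collagen medians. Collagen genes lower without overlap numbered 11 of 38 with no filter, beside 17.2% of all genes in that fit. On leaving out a library they numbered 6 to 10 of 12, beside 29.3% to 35.8% of all tested genes. At a mean of at least 5 FPKM 3 of 5 were lower, where the share over all genes was not computed. With no filter 1 was higher, beside 16.3% of all. On leaving out a library 0 to 2 were higher, also without a computed share. At an unadjusted limma p under 0.05, 1 was lower with no filter, where the share over all genes was not computed. Without small RNA loci 2 were, beside 3.62% of all tested genes. With small RNA loci and the length trend both removed (chosen after the data were seen) 4 were, beside 4.42%. The fibrillar median was -0.45 with a pseudocount of 0.1 and -0.51 to -0.16 on leaving out a library, and had no value at a mean of at least 5 FPKM. The median of the other collagens was -0.70 at that filter, which left 1 gene, and -0.30 to -0.15 on leaving out a library. Col6a2 was 0.02 with the length trend removed, with or without small RNA loci, and Itga1 0.11. Itgb1 was -0.10 after TPM. On leaving out a library, the log2 fold change ran from -1.17 to 0.22 for Col15a1, -0.30 to 0.52 for Col28a1, -0.51 to 0.22 for Col3a1, -0.21 to 0.05 for Col6a1, -0.26 to 0.19 for Col6a2, -0.04 to 0.07 for Itgb1, -0.13 to 0.59 for Serpinh1 and -0.67 to 0.28 for Lox. Over all genes, 10 lower became 4 without small RNA loci, with or without the length trend, and 3 higher became 5 with a pseudocount of 0.1 or robust shrinkage and 1 with no filter. Leaving out a library gave 12 to 53 lower and 1 to 21 higher. The cause was not tested. Depth limits the 26 collagen genes below the filter.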
